A study of Mus musculus with 12 samples.

Results

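The response of MC3T3-E1 cells to tumor necrosis factor alpha (TNFa) given without BMP4 was read from 6 of the 12 polyA RNA-seq libraries of the series, 3 from TNFa-treated cells and 3 from untreated cells. MC3T3-E1 is an osteoblastic cell line from mouse calvaria, here without a genetic change. Genes were tested when the mean of their deposited log2 values over all libraries was at least 4, which kept 11765 of 25124 entries.

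In the TNFa group, cells were kept in medium with 2.5% serum for 30 min and then received TNFa at 10 ng/mL and no BMP4. Untreated cells went through the same serum reduction and received neither factor. The protocol gives 30 min for TNFa before a 3 h step with or without BMP4, whereas the treatment label of each TNFa library gives 3 h, so the length of exposure is not settled. The term p65 in the titles of the TNFa libraries has no explanation in the labels. Replicate 1 of each group belongs to batch 1 and replicates 2 and 3 belong to batch 2, and values below are given in the order of replicates 1, 2 and 3. All libraries come from a single cell line, and nothing states that replicates were separate cultures, so the p-values measure the spread between these libraries only. The other 6 libraries, from cells given TNFa and then BMP4 at 10 ng/mL or given BMP4 alone, served to estimate the spread and to read the TNFa effect again in separate libraries.

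TNFa is an inflammatory cytokine that binds the receptors encoded by Tnfrsf1a and Tnfrsf1b. Receptor-bound adaptors recruit ubiquitin ligases and the TAK1 and IKK kinases, IKK marks IkB proteins for destruction, and the freed NF-kB dimers enter the nucleus and bind kB sites. Among the targets of NF-kB are genes for its own inhibitors, for chemokines and adhesion molecules, and for further transcription factors, while MAP kinases reach AP-1 factors in parallel; in bone-forming cells, TNFa is known for restraining differentiation.

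TNFa raised 1078 genes and lowered 744, which is 9.16% and 6.32% of the genes tested (limma with Benjamini-Hochberg adjusted p under 0.05, 15.5% in all). By adjusted p in the authors' deposited table, 957 of the tested genes were higher and 578 lower (8.13% and 4.91%). The raised and lowered sides differed in size. The median log2 fold change was 0.35 among raised genes and -0.29 among lowered genes, against -0.01 over all genes tested. A change of at least 1 on the log2 scale was reached by 100 raised genes and by 2 lowered ones, and a change of at least 0.5 by 342 and 80. Raised and lowered genes had the same median level in untreated cells, 9.23 on the deposited log2 scale. Differences of low genes are compressed on that scale: over called genes, the slope of the deposited difference on the fold change of the authors' deposited table was 0.255 for 138 genes at levels of 4 to 6 and 0.917 for 606 genes at 10 or above. Orders of genes by size of change therefore hold on the deposited scale and may turn on another. The middle 90% of raised genes lay between 0.18 and 1.32, and that of lowered genes between -0.64 and -0.18. Values of the 3 TNFa libraries lay wholly above or wholly below those of the 3 untreated libraries for 751 raised and 423 lowered genes (69.7% and 56.9%, against 17.0% of all genes tested). The direction was the same in both batches for all 1078 raised genes and for 743 of the 744 lowered ones, against 8196 of all 11765 tested genes. Calls came from these same libraries, so the separation of groups and the shared direction follow in large part from the selection.

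**Figure D1:**
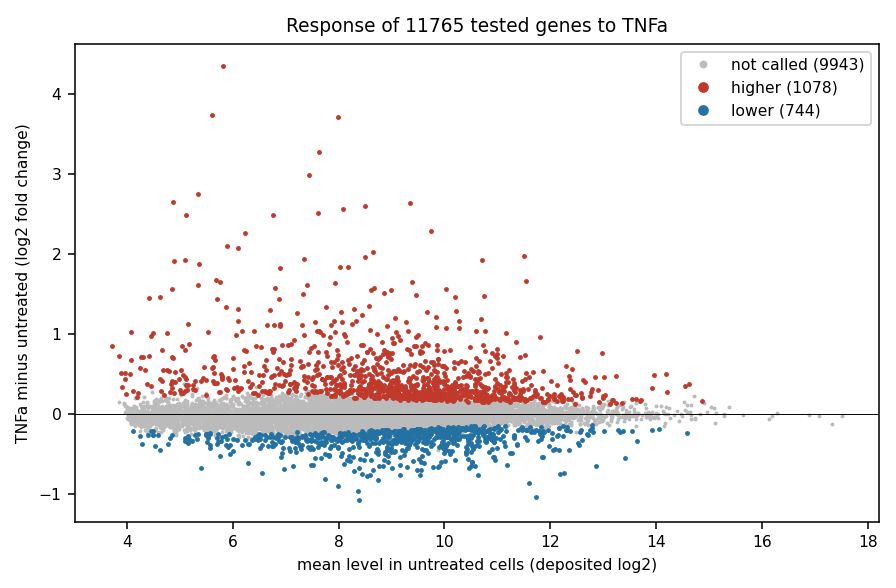
Log2 fold change (TNFa minus untreated, vertical axis) of the 11765 tested genes against their mean deposited log2 level in untreated cells (horizontal axis), with 1 point per gene, red for the 1078 called higher, blue for the 744 called lower and grey for genes not called. The red points reach 4.36, whereas the blue points end at -1.08.

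Tag totals were 13.8 M, 15.3 M and 14.8 M in TNFa cells and 14.7 M, 13.9 M and 15.2 M in untreated cells. In a principal component analysis, batches separated along the leading axis (48.0% of variance) and libraries with TNFa from those without it along the next (26.4%). Of 11 osteoblast lineage markers 7 reached the minimum level, and Alpl, Bglap, Ibsp and Dmp1 did not. The macrophage marker Adgre1, the epithelial markers Epcam, Krt8 and Krt18, the adipocyte markers Adipoq and Plin1, the endothelial marker Kdr and all 3 lymphocyte markers are listed at 0 throughout. Of 4 endothelial and 4 muscle markers, 1 each reached the minimum level, and neither was called. Summed endothelial levels ran from 5.15 to 5.39 in TNFa cells and from 5.16 to 5.45 in untreated cells (log2). Summed muscle levels ran from 4.47 to 4.55 in TNFa cells and from 4.55 to 4.64 in untreated cells. Summed levels of the 8 macrophage markers ran from 6.85 to 6.90 in TNFa cells and from 6.82 to 6.93 in untreated cells (log2), and none of the 3 tested passed (limma; 0 at an unadjusted p under 0.05 and 0 in the authors' deposited table). In such bulk libraries, fewer cells of a kind and less RNA per cell cannot be told apart. Gapdh had 10.32, 10.81 and 10.79 in TNFa cells and 10.22, 10.72 and 10.88 in untreated cells, and did not pass (0.03 ± 0.05, SE). Of 16 housekeeping controls 2 were called higher, and the larger rise was 0.43. The smaller was that of the actin gene Actb at 0.17 ± 0.05 (limma adjusted p = 0.0199). The Actb call was lost without TNFa replicate 1, TNFa replicate 3, untreated replicate 1 or untreated replicate 2.

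Tnf itself is listed at 0 in every library, and none of the 3 tested TNF superfamily ligands passed (limma; 0 at an unadjusted p under 0.05 and 0 in the authors' deposited table). Tnfrsf1a, the main signalling receptor, had levels of 10.57, 10.70 and 10.75 in TNFa cells and 10.47, 10.61 and 10.67 in untreated cells. These overlap, and its difference of 0.09 ± 0.06 did not pass. Tnfrsf1b, the second receptor, had 8.38, 8.20 and 8.36 in TNFa cells and 7.74, 7.88 and 7.93 in untreated cells, groups that do not overlap, and rose by 0.46 ± 0.09 (adjusted p = 5.31e-04). In the receptor family 7 of 17 tested members rose, led by the death receptor gene Fas (2.26 ± 0.09), the costimulatory receptor Tnfrsf9 (0.73) and the lymphocyte-interacting receptor Tnfrsf14 (0.54), and 1 fell; that fall was lost without TNFa replicate 1 or 2.

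Behind the receptors, 7 of 21 adaptors of the TRAF, RIP and death-domain families rose. Ripk2, a kinase downstream of NOD receptors, had 10.48, 10.03 and 10.02 in TNFa cells and 8.69, 8.62 and 8.55 in untreated cells. Traf3, which restrains the alternative NF-kB pathway, had 10.40, 10.43 and 10.46 in TNFa cells and 9.20, 9.28 and 9.36 in untreated cells. Their rises were 1.55 ± 0.07 and 1.15 ± 0.06, with no overlap of groups, and Traf2 and Traf1 rose by 0.75 and 0.71. The 1 adaptor called lower was no longer called without TNFa replicate 1 or untreated replicate 1. Of the 14 subunits and partners of the IKK and TAK1 complexes 4 rose. The IKK-related kinase gene Ikbke led them at 0.88 ± 0.10 and its relative Tbk1 rose by 0.24, while the catalytic subunit Ikbkb (0.20) lost its call without TNFa replicate 2 (adjusted p = 0.0800). Among MAP kinases and their activators 6 of 36 rose (16.7%), with the p38 kinase gene Mapk11 at 0.72 and the p38 activator Map2k3 at 0.50. Of 16 MAP kinase phosphatases 2 rose (12.5%), Dusp10 by 1.02 and Dusp6 by 0.58. The share called higher over all tested genes was 9.16%.

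The NF-kB subunits and their inhibitors had the highest median of the signalling lists: 9 of 13 rose, with a median of 0.83 against -0.01 for all tested genes. The inhibitor gene Nfkbie (NM_008690, chromosome 17, 45555700 to 45563168) had 12.15, 11.47 and 11.48 in TNFa cells and 8.42, 7.83 and 7.72 in untreated cells. Relb, the subunit of the alternative pathway (chromosome 7, 19606223 to 19629438), had 10.87, 10.50 and 10.56 in TNFa cells and 8.09, 7.98 and 8.18 in untreated cells. Bcl3, an atypical IkB protein that works in the nucleus, had 8.29, 8.13 and 8.08 in TNFa cells and 5.87, 6.23 and 6.17 in untreated cells. None of the 3 overlapped between groups, and they rose by 3.71 ± 0.05, 2.56 ± 0.08 and 2.07 ± 0.10. On a linear scale these fitted values are 13.1-fold, 5.90-fold and 4.21-fold, but their order does not hold off the deposited scale: the log2 fold changes in the authors' deposited table are 4.24 for Nfkbie, 2.97 for Relb and 3.39 for Bcl3. Nfkb2, the partner precursor of Relb, rose by 1.93 ± 0.05, and the subunit genes of the classical pathway rose less, Rela by 0.78 ± 0.05 and Nfkb1 by 0.83 ± 0.08. Rel, a further transactivating subunit, rose by 0.36; Nfkb1 and Rel were named after their values were seen.

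Ubiquitin editors that adjust or end the signal rose in 9 of 20 cases. Tnfaip3, which encodes the editing enzyme A20, had 10.79, 9.80 and 9.81 in TNFa cells and 8.21, 7.31 and 7.33 in untreated cells, and rose by 2.52 ± 0.11. Its binding partner Tnip1 had 11.22, 10.94 and 10.95 in TNFa cells and 9.51, 9.26 and 9.37 in untreated cells, and rose by 1.65 ± 0.05. Neither overlapped between groups. Birc3 and Birc2, ubiquitin ligases of the receptor complex, rose by 1.57 ± 0.12 and 0.86, and the RNase Zc3h12a, which trims inflammatory mRNAs, by 0.81. In the lists of IKK kinases, NF-kB subunits, ubiquitin editors, MAP kinases and their phosphatases, limma called 0 members lower. At an unadjusted p under 0.05 the MAP kinases and the phosphatases had 2 lower members each and the other 3 lists 0, and the authors' deposited table called 0 in all 5. Without untreated replicate 2, 1 MAP kinase was called lower, and without untreated replicate 3, 1 phosphatase.

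Promoters of 6 raised genes, picked because they hold a match, and of the lowered gene Rflnb, which has no match to the kB consensus, are shown as examples. Among the named genes with the largest changes, 7 of 17 promoters of raised genes and 2 of 17 of lowered genes held a kB consensus match before the start site. Of all 9304 promoters searched, 405 (4.35%) held such a match. The same held for 93 of 849 promoters of raised genes (11.0%) and 25 of 564 of lowered genes (4.43%). Not every gene with a large change is among the 17 of each set, and sets this small were not tested against the share of all. Each run is the 250 bases before the annotated start site, read 5′ to 3′ on the gene's strand, from RefSeq annotation of GRCm38.p6. Capitals mark matches to the kB consensus on either strand in the promoters of Nfkbie (chr17:45555450-45555699, plus strand), Tlr2 (chr3:83841609-83841858, minus strand), Nfkbia (chr12:55492648-55492897, minus strand) and Tnfaip3 (chr10:19015411-19015660, minus strand). In the promoters of Gbp2 (chr3:142620413-142620662, plus strand) and Gbp7 (chr3:142530086-142530335, plus strand) they mark a match to an ISRE-like motif, the repeat of TTTC with a spacer of 2 free bases that forms the core of an interferon-stimulated response element. The Rflnb promoter (chr11:76027783-76028032, minus strand) carries no capitals.
Nfkbie: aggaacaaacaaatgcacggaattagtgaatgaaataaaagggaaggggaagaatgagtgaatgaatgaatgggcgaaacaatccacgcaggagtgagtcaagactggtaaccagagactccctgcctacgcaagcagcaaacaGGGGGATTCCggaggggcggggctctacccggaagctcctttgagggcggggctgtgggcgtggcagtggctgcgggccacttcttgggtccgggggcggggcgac
Tlr2: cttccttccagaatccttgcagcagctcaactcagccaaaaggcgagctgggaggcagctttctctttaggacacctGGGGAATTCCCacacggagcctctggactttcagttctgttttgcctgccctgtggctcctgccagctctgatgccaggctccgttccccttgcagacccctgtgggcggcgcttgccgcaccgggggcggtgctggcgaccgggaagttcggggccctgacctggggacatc
Nfkbia: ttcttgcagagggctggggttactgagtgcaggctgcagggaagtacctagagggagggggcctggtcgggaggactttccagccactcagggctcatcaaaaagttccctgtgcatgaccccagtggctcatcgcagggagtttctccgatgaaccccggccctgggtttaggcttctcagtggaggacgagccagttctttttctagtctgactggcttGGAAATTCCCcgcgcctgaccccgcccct
Tnfaip3: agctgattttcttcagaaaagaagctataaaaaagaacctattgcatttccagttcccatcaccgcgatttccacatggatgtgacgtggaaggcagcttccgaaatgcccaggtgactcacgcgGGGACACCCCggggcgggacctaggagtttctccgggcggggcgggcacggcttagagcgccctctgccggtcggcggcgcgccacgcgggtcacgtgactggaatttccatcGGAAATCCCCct
Gbp2: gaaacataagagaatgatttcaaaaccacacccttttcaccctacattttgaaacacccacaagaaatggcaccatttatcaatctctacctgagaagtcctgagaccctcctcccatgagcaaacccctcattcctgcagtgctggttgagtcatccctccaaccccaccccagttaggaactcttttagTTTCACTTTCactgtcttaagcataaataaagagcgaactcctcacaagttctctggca
Gbp7: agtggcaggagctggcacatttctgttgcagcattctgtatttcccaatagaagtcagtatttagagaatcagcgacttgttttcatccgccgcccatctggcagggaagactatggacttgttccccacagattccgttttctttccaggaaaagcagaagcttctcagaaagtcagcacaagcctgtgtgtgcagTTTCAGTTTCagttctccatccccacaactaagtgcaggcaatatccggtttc
Rflnb: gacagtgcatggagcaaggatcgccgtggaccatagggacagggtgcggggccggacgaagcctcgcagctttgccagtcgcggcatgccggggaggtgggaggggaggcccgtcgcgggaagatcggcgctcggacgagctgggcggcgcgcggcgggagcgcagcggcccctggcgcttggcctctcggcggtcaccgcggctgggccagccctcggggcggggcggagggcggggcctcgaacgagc

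The first base of the kB match lay at -106 from the start site in Nfkbie, at -29 in Nfkbia, and at -125 and -12 in Tnfaip3. In Tlr2 overlapping matches began at -173 and -172. For 9304 of the 11765 tested genes a promoter of 300 bases, 250 before and 50 after the start site, was matched by symbol, and for 8892 of them the start site equals that of the deposited entry. The kB consensus was a pattern added after the data were seen. It was found on either strand in 12.1% of 849 promoters of raised genes (exact 95% interval 10.0 to 14.5%), in 4.79% of 564 promoters of lowered genes and in 4.27% of 7891 promoters of genes not called, against 5.02% of all. Among the 75 promoters of genes raised by at least 1 it was found in 26.7% (17.1 to 38.1%). The ISRE-like motif matched 7.77% of raised, 2.66% of lowered and 2.55% of uncalled promoters, against 3.03% of all, and 16.0% of those raised by at least 1. TGANTCA, the AP-1 site, gave 7.54%, 4.08% and 4.12% for the same sets, against 4.43% of all. The ETS site CCGGAAGT went the other way, with 5.54% of raised, 2.48% of lowered and 10.1% of uncalled promoters, against 9.21% of all. TATAAA was present in 8.83% of raised and 7.98% of lowered promoters, against 6.35% of all. Of the other motifs searched, the E-box CACGTG matched 10.4% of all promoters, the GC box GGGCGG 67.8%, the TEAD site GGAATG 11.4% and the CRE site TGACGTCA 3.43%. A looser kB-like pattern (GGG and CC with 5 free bases between) overlaps the kB consensus and GC-rich sequence. This looser pattern matched 73.6% of raised, 70.7% of lowered and 69.0% of uncalled promoters, against 69.5% of all. Intervals cover counting error only, promoters of neighbouring or duplicated genes are not independent, and a match is a description of letters.

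Chemokine genes had the highest median of the lists with at least 10 tested members (1.22). Of 41 in the file, 17 are listed at 0, 14 lie under the minimum and 10 were tested, of which 7 rose; genes that pass the minimum through their TNFa level had to differ, which holds for 7 of all raised genes with an untreated mean under 4. Ccl2, a monocyte attractant, had 11.01, 9.78 and 9.71 in TNFa cells and 5.88, 5.84 and 5.71 in untreated cells. Cx3cl1, a membrane-bound chemokine, had 12.36, 11.76 and 11.86 in TNFa cells and 10.21, 8.88 and 8.96 in untreated cells. Ccl5, a T cell attractant, had 9.32, 6.63 and 6.63 in TNFa cells and 4.87, 4.92 and 4.82 in untreated cells. The groups are apart for all 3, and in TNFa cells Ccl5 stood highest in the library of batch 1. Its fitted rise of 2.66 ± 0.38 covers 4.45 in batch 1 and 1.76 in batch 2. Among interleukins and colony stimulating factors 5 of 12 rose and 1 fell, with the macrophage growth factor gene Csf1 at 1.98 ± 0.07 and the IL-6 family cytokine Lif at 1.04 ± 0.10. The count of risen members was 3 without TNFa replicate 1, untreated replicate 1 or untreated replicate 2, and the fall was called only without untreated replicate 1 and in the full set.

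Receptors for other cytokines rose broadly, with 17 of 29 tested entries higher and 1 lower (the list also holds the receptor antagonist Il1rn, which lost its call in 3 fits that left out 1 library, with adjusted p = 0.234 without TNFa replicate 1). The interferon gamma receptor chain Ifngr2 had 9.66, 9.71 and 9.65 in TNFa cells and 8.36, 8.50 and 8.47 in untreated cells, and rose by 1.24 ± 0.06. Il13ra1 and Il15ra, receptor chains for IL-13 and IL-15, rose by 1.04 each. The 1 fall kept its call without untreated replicate 3 and lost it without any of the other 5 libraries. Pattern receptors rose in 9 of 21 cases and fell in 1, which was lost without TNFa replicate 2. The lipoprotein sensor Tlr2 had 10.90, 10.15 and 10.26 in TNFa cells and 7.75, 7.44 and 7.14 in untreated cells. Nod2, a sensor of bacterial muramyl peptide, had 8.72, 8.69 and 8.76 in TNFa cells and 6.72, 6.97 and 6.99 in untreated cells. Both sets of libraries are apart, with rises of 2.99 ± 0.11 and 1.83 ± 0.11. The RNA sensor Ddx58 (RIG-I) rose by 1.49 and Nod1 by 1.13. In the complement and coagulation list 9 of 19 rose and 1 fell, with the central complement gene C3 at 3.74 ± 0.15.

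Genes known from the interferon response rose widely. All 8 tested guanylate-binding proteins and immunity-related GTPases rose, with a median of 1.44. Gbp2 had 11.10, 10.83 and 10.81 in TNFa cells and 7.81, 7.57 and 7.54 in untreated cells, and Gbp7 had 7.90, 8.03 and 8.07 in TNFa cells and 5.97, 5.86 and 5.86 in untreated cells. Neither pair of groups overlaps. Of the antiviral interferon-stimulated genes 24 of 35 rose, with a median of 0.42: the ADP-ribosyltransferase genes Parp14 (1.93 ± 0.09), Parp9 (1.32) and Parp10 (1.16), the RNA-binding Ifit1 (1.57) and the E3 ligase gene Dtx3l (1.17). The PARP family as a whole had 7 of 16 members higher. TRIM ligases rose in 13 of 36 cases, led by the antibody receptor Trim21 (1.11) and by Trim56 (0.80), and fell in 1, a call that was lost without TNFa replicate 3 or any 1 untreated library. Ubiquitin-specific proteases had 7 of 43 higher and 3 lower. Between 0 and 4 of them were higher when any 1 library was left out (0 without TNFa replicate 2). The authors' deposited table called 0 of the tested members higher and 1 lower, and 1 member below the minimum higher. In TNFa+BMP4 over BMP4 cells 1 tested member was higher and 4 were lower. Their lowered members numbered 1 without any 1 TNFa library or untreated replicate 1.

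Of 22 tested genes of class I antigen presentation 15 rose, with a median of 0.47. Tapbp, which loads peptides, had 13.26, 13.14 and 13.22 in TNFa cells and 11.73, 11.40 and 11.50 in untreated cells. The heavy chain gene H2-K1 had 11.74, 11.61 and 11.66 in TNFa cells and 10.22, 10.11 and 10.28 in untreated cells, and the peptide transporter subunit Tap2 had 10.75, 10.21 and 10.15 in TNFa cells and 9.11, 8.77 and 8.68 in untreated cells. All are clear of overlap, with rises of 1.66 ± 0.07, 1.46 ± 0.06 and 1.52 ± 0.06. Of the 9 immunoproteasome and activator genes 6 rose, among them the catalytic subunits Psmb10 (1.84 ± 0.08) and Psmb8 (1.65 ± 0.12). Of the 34 constitutive proteasome subunits 4 rose (11.8%, against 9.16% of all tested genes). Of these subunits 1 or 2 rose without TNFa replicate 1, TNFa replicate 2 or untreated replicate 1. Psma6 was highest at 0.40. In the lists named in the last 2 paragraphs with no member called lower (limma), 1 PARP gene and 0 of the others were lower at an unadjusted p under 0.05, and the authors' deposited table called 0. Guanylate-binding, class I and TRIM genes include near-identical copies among which reads may have been split, so single values in these families are uncertain.

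Raised genes often lay beside each other. Of the 1078, 349 (32.4%) had a raised gene as an adjacent tested gene on the chromosome, against 17.2% of all tested genes, and of the 744 lowered genes 188 (25.3%) had a lowered neighbour, against 12.1%. On chromosome 3, Gbp5, Gbp7, Gbp3 and Gbp2 formed a run of 4 within 141 kb with fold changes between 1.45 and 3.28. Chromosome 17 held Psmb9, Tap1, Psmb8 and Tap2 within 34.2 kb (0.55 to 1.65), and chromosome 16 held the receptor genes Ifnar2, Il10rb, Ifnar1 and Ifngr2 within 191 kb (0.31 to 1.24). On chromosome 9, Tmem123, Birc2, Birc3 and Yap1 were all higher within 241 kb (0.30 to 1.57), and S1pr2, Mrpl4, Icam1 and Icam5 within 73.1 kb (0.69 to 1.92). The longest runs had 6 genes and included the TRIM genes from Trim34a to Trim30d on chromosome 7 within 263 kb (0.29 to 0.78). On the lowered side Irx5, Mmp2, Lpcat2 and Gnao1 formed a run of 4 on chromosome 8 that spanned 1603 kb (-0.66 to -0.19). The runs, and the members of them that appear nowhere else in the text, were chosen after the values were seen, and duplicated genes share reads in some of them. Of the genes named here and below, Nfkb2, Traf3, Parp9, Dtx3l, Fosl1, Cebpd, Zbtb7c, Scx, Bhlhe40, St3gal4, St3gal5, Spns2, Tsr1, Mtus1, Notch1, Kif7, Ltbp2, Fgf7, Timp1, Ccnd1 and others overlap another entry of the file. The labels do not say whether counting used strand, so shared reads cannot be told apart.

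Transcription factor genes moved in both directions, with counts that varied by family. Of 676 tested members of the factor lists 80 rose and 65 fell (11.8% and 9.62%, against 9.16% and 6.32% of all tested genes). The median of the 676 members was -0.01, against -0.01 for all tested genes. The NF-kB subunits are counted with the signalling genes above. In the STAT family 5 of 6 rose and in the interferon regulatory factors 6 of 9. The interferon regulatory factor list also holds Irf2-binding proteins, and its count was 3 without TNFa replicate 1. Irf1 had 11.04, 10.89 and 10.90 in TNFa cells and 9.57, 9.74 and 9.70 in untreated cells, and rose by 1.27 ± 0.10. In AP-1 the count was 5 of 12 higher and 2 lower, and the 2 falls were 0 or 1 in every fit that left out 1 of the 6 libraries. Junb had 10.67, 10.57 and 10.77 in TNFa cells and 8.37, 8.65 and 8.95 in untreated cells. It rose by 2.02 ± 0.09, Fosl1 by 1.34 ± 0.11 and the small Maf factor Maff by 1.10 ± 0.14, while Fosl2 rose by 0.54.

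Further single factors rose outside those families. Spib, an ETS factor of lymphoid and dendritic cells that is in none of the lists, had 7.11, 7.81 and 7.88 in TNFa cells and 5.02, 5.18 and 5.14 in untreated cells. Trp53, the p53 tumor suppressor, had 11.53, 11.93 and 11.95 in TNFa cells and 10.75, 11.05 and 11.16 in untreated cells, and its relative Trp63 had 7.88, 7.51 and 7.32 in TNFa cells and 8.36, 7.92 and 7.90 in untreated cells. None of these overlap, so Trp53 rose (0.82 ± 0.05) where Trp63 fell (-0.49 ± 0.08). Zbtb7c (1.10 ± 0.07), the stress-responsive Foxo3 (0.80 ± 0.07), the repressor of epithelial genes Zeb1 (0.80 ± 0.08), Ets1 (0.77) and Cebpd (0.75 ± 0.07), which takes part in acute-phase responses, rose as well. Of 36 ZBTB factors 6 rose, and limma called 0 lower (1 at an unadjusted p under 0.05 and 0 in the authors' deposited table). Smad3, a mediator of TGF-beta signals, rose by 0.85 ± 0.05, with 11.03, 10.13 and 10.13 in TNFa cells and 10.09, 9.35 and 9.30 in untreated cells; these sets are apart only just, since batch 1 lay higher in both.

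**Figure D2:**
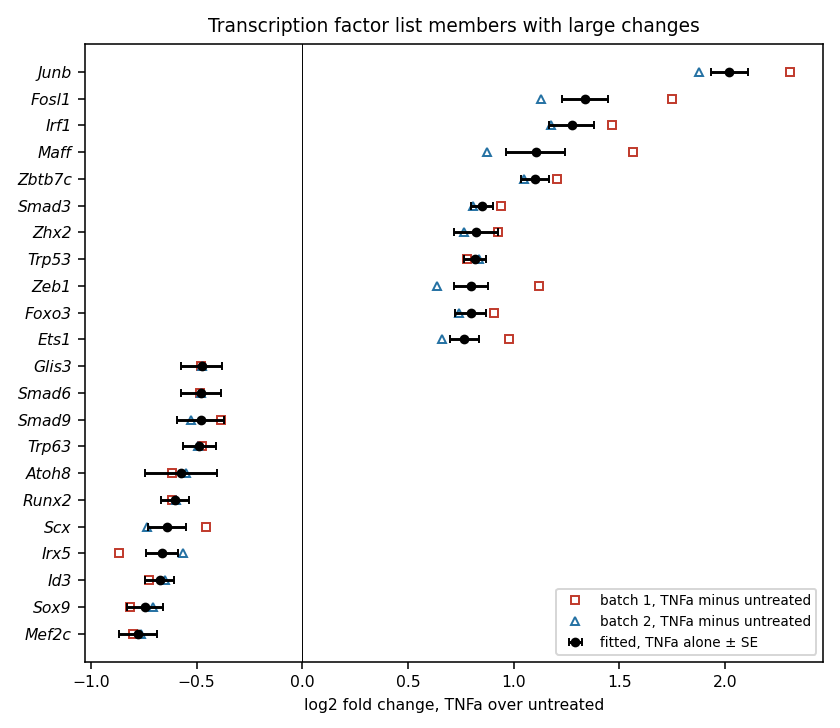
Log2 fold change (TNFa over untreated, horizontal axis) of 11 raised and 11 lowered members of the transcription factor lists with large changes; black points and bars are the fitted value ± SE, red squares the difference in batch 1 (1 library each) and blue triangles the difference in batch 2 (2 libraries each). Junb stands highest at 2.02 and Mef2c lowest at -0.78, and both batches lie on the same side of 0 for every factor drawn; the Atoh8 call was lost without TNFa replicate 1 (limma adjusted p = 0.235) and in 2 similar fits.

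Of 55 tested homeobox genes 10 fell and 3 rose, with a median of -0.10. The falls numbered 6 without TNFa replicate 1 or untreated replicate 1, and 1 rose without TNFa replicate 3 or untreated replicate 2. Irx5, a patterning factor, had 8.24, 8.76 and 8.90 in TNFa cells and 9.11, 9.40 and 9.39 in untreated cells. It fell by 0.66 ± 0.08, and its groups do not overlap. Among GATA, RUNX, MEF2 and TEAD factors 5 of 18 fell and 2 rose; without TNFa replicate 1 or untreated replicate 2, 3 fell. Runx2, required for osteoblast formation, had 10.09, 9.82 and 9.84 in TNFa cells and 10.71, 10.44 and 10.41 in untreated cells. Mef2c had 7.83, 7.67 and 7.80 in TNFa cells and 8.63, 8.50 and 8.50 in untreated cells. Both are apart between groups, with falls of 0.60 ± 0.07 and 0.78 ± 0.09, while the Hippo pathway coactivators Wwtr1 and Yap1 in the same list rose by 0.34 and 0.30.

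Of 42 basic helix-loop-helix factors 9 fell and 6 rose, of 17 SMAD, TCF/LEF and GLI factors 6 fell and 3 rose, and of 6 SOX factors 2 fell and 1 rose. The tendon factor Scx had 6.85, 6.77 and 6.99 in TNFa cells and 7.30, 7.53 and 7.69 in untreated cells, and fell by 0.64 ± 0.09. The cartilage factor Sox9 had 11.30, 11.56 and 11.70 in TNFa cells and 12.12, 12.28 and 12.40 in untreated cells, and fell by 0.74 ± 0.09. Smad9, a receptor-regulated Smad of the BMP path, had 6.47, 6.94 and 6.73 in TNFa cells and 6.86, 7.29 and 7.44 in untreated cells, and fell by 0.48 ± 0.11 although the groups overlap when batch is set aside. Sox4 fell by 0.46 while Sox11 rose by 0.31, and the lysosomal regulator Tfe3 (0.61) and the clock repressor Bhlhe40 (0.63) were on the raised side of the helix-loop-helix list. Among 318 C2H2 zinc finger genes named Zfp, 9 rose and 13 fell, shares of 2.83% and 4.09% that lie below the background of all genes; the falls numbered 7 or 8 without TNFa replicate 1, TNFa replicate 2 or untreated replicate 1.

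**Figure D3:**
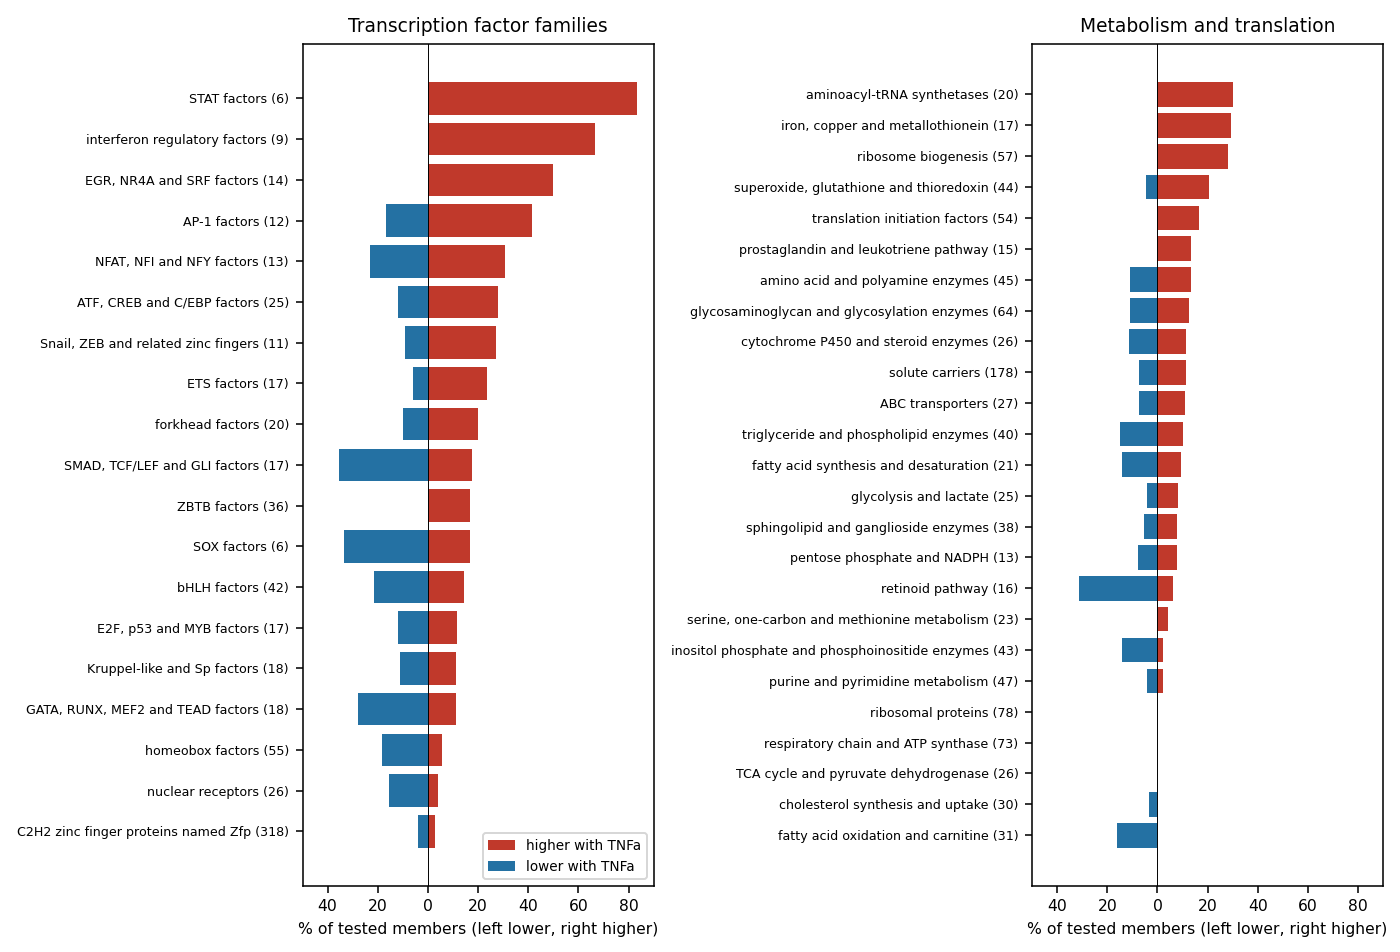
Percentage of tested members called higher (red, to the right of 0) or lower (blue, to the left of 0) with TNFa against untreated cells, for transcription factor families (left) and lists of metabolism and translation (right) with at least 6 tested members, whose number stands in brackets. STAT factors reach 83.3% higher, and the ribosomal protein, respiratory chain and TCA cycle lists have no bar.

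Of 73 tested genes of the respiratory chain and ATP synthase and 26 of the TCA cycle, limma called 0, with medians of -0.02 and -0.04. At an unadjusted p under 0.05 the respiratory list had 1 higher and 2 lower and the TCA list 1 and 1, and the authors' deposited table called 0 in both. Without untreated replicate 2, 1 respiratory gene was called lower, and without untreated replicate 1, 1 gene of the TCA cycle. In glycolysis 2 of 25 rose and 1 fell (12.0% called, against 15.5% of all tested genes). The fall was lost without TNFa replicate 1 or untreated replicate 1. The glucose transporter Slc2a1 had 9.57, 8.73 and 8.64 in TNFa cells and 8.71, 8.32 and 8.26 in untreated cells, which overlap between batches, and rose by 0.55 ± 0.10; Hk1, the first enzyme of glycolysis, rose by 0.25. Fatty acid oxidation had 5 of 31 lower and 0 higher (limma; 0 higher at an unadjusted p under 0.05 and 0 in the authors' deposited table). The authors' deposited table called 3 of the 31 lower. In TNFa+BMP4 over BMP4 cells 0 were called lower and 0 higher. The dehydrogenase gene Acadm, with 9.12, 9.49 and 9.41 in TNFa cells and 9.64, 9.85 and 9.74 in untreated cells, fell by 0.40 ± 0.09. The count of 5 was 1 without TNFa replicate 2 or untreated replicate 1, 2 without TNFa replicate 1 or 3, and 3 without untreated replicate 3. In fatty acid synthesis and desaturation 3 of 21 fell and 2 rose. The desaturase genes Scd1 and Scd2 fell by 0.22 and 0.24, and the elongase gene Elovl6 and the acyl-CoA synthetase gene Acsl5 rose by 0.26 and 0.25. Of the rises, 0 were called without TNFa replicate 1 and 1 without untreated replicate 1 or 2.

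Oxidant and metal handling rose in part. In the list of superoxide, glutathione and thioredoxin genes 9 of 44 rose and 2 fell (1 without TNFa replicate 2, TNFa replicate 3, untreated replicate 1 or untreated replicate 3). Nfe2l2, the NRF2 factor that governs antioxidant genes, had 10.71, 10.75 and 10.72 in TNFa cells and 9.70, 9.92 and 9.97 in untreated cells, and rose by 0.86 ± 0.08 without overlap. Hmox1, which degrades heme, rose by 0.78 ± 0.11, and mitochondrial superoxide dismutase Sod2 by 0.57 ± 0.08. Of 17 genes for iron, copper and metallothionein 5 rose, and limma called 0 lower (0 at an unadjusted p under 0.05 and 0 in the authors' deposited table). The metallothionein Mt2 had 11.74, 11.22 and 11.34 in TNFa cells and 10.23, 10.34 and 10.25 in untreated cells, a rise of 1.16 ± 0.11, and the iron importer Slc11a2 rose by 0.65. Gch1, the entry enzyme of tetrahydrobiopterin synthesis, rose by 0.84 ± 0.07 and the spermine synthase gene Sms by 0.49. Of 178 solute carriers 20 rose and 13 fell, close to the background shares; the falls numbered 7 or 8 without any 1 TNFa library or untreated replicate 1. Slc2a6, a lysosomal hexose transporter, had 7.52, 7.37 and 7.20 in TNFa cells and 5.63, 5.70 and 5.73 in untreated cells, the largest rise of that family (1.67 ± 0.10).

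Of 64 tested sugar and glycosylation enzymes 8 were higher and 7 lower (23.4% called, against 15.5% of all tested genes), with a median of -0.02. Uap1, which makes UDP-N-acetylglucosamine, had 10.98, 11.20 and 11.16 in TNFa cells and 9.73, 10.25 and 10.13 in untreated cells, and rose by 1.08 ± 0.09. The sialyltransferase St3gal1, which acts on O-glycans, had 9.94, 9.63 and 9.61 in TNFa cells and 8.60, 8.75 and 8.83 in untreated cells. Its relative St3gal4 had 8.37, 7.96 and 8.03 in TNFa cells and 9.00, 8.66 and 8.65 in untreated cells, and St3gal5, the first enzyme of ganglioside synthesis, had 8.97, 9.20 and 9.20 in TNFa cells and 9.57, 9.88 and 9.90 in untreated cells. St3gal1 thus lay higher in all 3 TNFa libraries than in any untreated library (1.00 ± 0.10), and both others lay lower (-0.65 ± 0.07 and -0.66 ± 0.07). In sphingosine 1-phosphate signalling the receptor gene S1pr2 rose by 0.78 ± 0.07 and the exporter Spns2 fell by 0.52 ± 0.08.

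The retinoid pathway had 5 of 16 genes lower and 1 higher. The retinaldehyde reductase Dhrs3 had 7.13, 7.06 and 7.11 in TNFa cells and 8.35, 7.70 and 7.95 in untreated cells. Cyp26b1, which degrades retinoic acid, had 10.59, 10.75 and 10.85 in TNFa cells and 12.04, 11.28 and 11.46 in untreated cells. The groups do not overlap for either, and the falls were 0.90 ± 0.11 and 0.86 ± 0.14, with the untreated library of batch 1 highest for both. Dhrs9, a dehydrogenase of the same path, rose by 0.55 ± 0.10. The count of 5 was 2 without TNFa replicate 1 or untreated replicate 3. Rara and Aldh1a3, with falls of 0.21 and 0.35, lost their calls in some such fits (adjusted p = 0.109 for Rara without untreated replicate 3 and 0.106 for Aldh1a3 without TNFa replicate 1). Without TNFa replicate 3, 2 genes were higher.

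Some genes of the translation machinery rose by small amounts, while most members of these lists did not pass. Of 57 ribosome biogenesis factors 16 rose, with a median of 0.16, and limma called 0 lower (0 at an unadjusted p under 0.05, where 34 were higher, and 0 in the authors' deposited table). Ddx21, a nucleolar helicase, had 12.02, 12.02 and 11.97 in TNFa cells and 11.42, 11.80 and 11.70 in untreated cells, and rose by 0.37 ± 0.07. Nolc1, a nucleolar chaperone, rose by 0.28 ± 0.06, and Tsr1, a factor of small subunit assembly, by 0.31 ± 0.06. The count was 4 without untreated replicate 1 and 8 without TNFa replicate 2. Of 54 initiation factors and their kinases 9 rose, with Eif6, which keeps large subunits free, at 0.47 ± 0.07, and of 20 aminoacyl-tRNA synthetases 6 rose, with Kars at 0.30 ± 0.05 (2 without TNFa replicate 2 and 3 without untreated replicate 1). In these last lists limma called 0 lower, 2 initiation factors and 0 synthetases were lower at an unadjusted p under 0.05, and the authors' deposited table called 0. Of 78 ribosomal protein genes limma called 0, with a median of -0.01; at an unadjusted p under 0.05, 0 were higher and 1 was lower, and the authors' deposited table called 1 lower.

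The 24 largest falls ran from -1.08 to -0.68. All but 1 of them, Tmem119, had groups that do not overlap, against 56.9% of all lowered genes and 17.0% of all tested genes. They were picked by size of change in these same libraries, so their separation follows in large part from the selection. Mtus1, which encodes microtubule-associated proteins (chromosome 8, 40990912 to 41133726), had 7.43, 7.24 and 7.28 in TNFa cells and 8.68, 8.35 and 8.15 in untreated cells. Rflnb, a filamin-binding regulator known from cartilage (chromosome 11, 76019195 to 76027782), had 10.27, 10.87 and 10.90 in TNFa cells and 11.62, 11.75 and 11.79 in untreated cells. Tafa5, a secreted chemokine-like protein (chromosome 15, 87544299 to 87759364), had 7.51, 7.30 and 7.41 in TNFa cells and 8.46, 8.37 and 8.27 in untreated cells. Their fitted ratios of TNFa over untreated were 0.474, 0.485 and 0.515, with adjusted p of 1.52e-08, 1.58e-06 and 1.19e-09, and in the authors' deposited table the log2 fold changes are -1.47, -1.13 and -1.32. Tmem119, which promotes osteoblast differentiation, had 8.21, 7.44 and 7.48 in TNFa cells and 9.04, 8.04 and 8.07 in untreated cells, and fell by 0.68 ± 0.08 within batches.

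Of 23 bone and cartilage differentiation genes 8 fell and 1 rose, with a median of -0.17. Summed levels of the 4 chondrocyte markers, with Acan listed at 0, ran from 14.44 to 14.94 in TNFa cells and from 14.77 to 15.05 in untreated cells, and those of the 11 osteoblast lineage markers from 18.67 to 18.71 and from 18.67 to 18.81; their part in the falls was not tested. The parathyroid hormone receptor Pth1r had 8.56, 7.94 and 8.07 in TNFa cells and 9.19, 8.59 and 8.74 in untreated cells. Panx3, a channel of chondrocytes and osteoblasts, had 5.54, 6.03 and 5.87 in TNFa cells and 6.25, 6.74 and 6.67 in untreated cells, and the cartilage link protein Hapln1 had 8.82, 8.79 and 8.72 in TNFa cells and 9.57, 9.58 and 9.47 in untreated cells. None overlapped, and the falls were 0.65 ± 0.09, 0.74 ± 0.09 and 0.76 ± 0.07. Cdh11, the osteoblast cadherin, was the 1 gene that rose, by 0.36 ± 0.04, with 12.54, 12.47 and 12.46 in TNFa cells and 12.13, 12.13 and 12.12 in untreated cells. In the collagens 6 of 27 rose and 1 fell (0 without TNFa replicate 1), and the cartilage collagen Col27a1 rose by 1.502 ± 0.12 although its levels of 9.78, 8.44 and 8.30 in TNFa cells and 8.73, 6.62 and 6.66 in untreated cells overlap between batches.

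**Figure D4:**
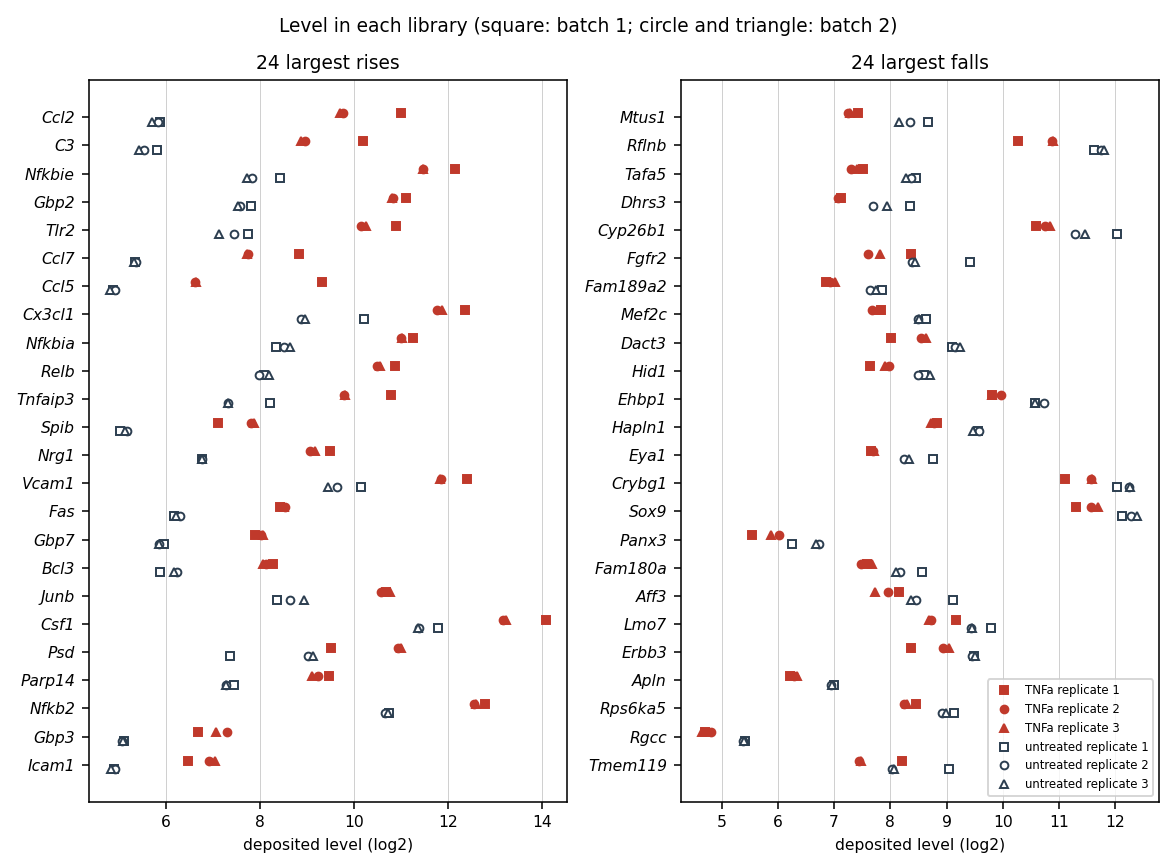
Deposited log2 level in each of the 6 libraries for the 24 most raised genes (left panel) and the 24 most lowered (right panel); filled red symbols are TNFa libraries and open symbols untreated libraries, with squares for batch 1 and circles and triangles for batch 2. For Ccl5 the TNFa library of batch 1 lies at 9.32 and those of batch 2 at 6.63, and the 3 Mtus1 values in TNFa cells (7.24 to 7.43) lie below those in untreated cells (8.15 to 8.68).

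Growth and patterning signals had calls in both directions. Fgfr2 had 8.36, 7.60 and 7.82 in TNFa cells and 9.42, 8.39 and 8.43 in untreated cells, and fell by 0.82 ± 0.09; of 8 tested FGF ligands and receptors 4 fell and 1, the ligand Fgf7, rose (0.62 ± 0.12). In the Wnt list 8 of 38 fell and 4 rose. The frizzled receptors Fzd8 and Fzd9 fell by 0.56 ± 0.09 and 0.53 ± 0.10, and Sostdc1, a secreted antagonist of Wnt and BMP, had 8.02, 8.71 and 8.85 in TNFa cells and 9.03, 9.19 and 9.28 in untreated cells (-0.64 ± 0.11). The ligand Wnt10a rose by 1.04 ± 0.09. Of the Notch and Hedgehog genes 5 of 19 fell and 2 rose. The Hedgehog co-receptor Cdon had 9.47, 9.43 and 9.42 in TNFa cells and 10.08, 10.00 and 9.98 in untreated cells, and it fell by 0.58 ± 0.07, Kif7, which regulates GLI factors at the cilium, by 0.58 ± 0.10 and Notch1 by 0.48 ± 0.08. In the PDGF, VEGF, EGF and HGF systems 8 of 21 rose and 6 fell: the EGF-family ligand Nrg1 had 9.50, 9.07 and 9.18 in TNFa cells and 6.76, 6.77 and 6.77 in untreated cells (2.48 ± 0.09), while Erbb3, a receptor for neuregulins, had 8.36, 8.95 and 9.05 in TNFa cells and 9.48, 9.46 and 9.51 in untreated cells (-0.69 ± 0.12). Both are apart between groups. The TGF-beta list, which by its name pattern also took in the kinase Bmp2k, had 8 of 41 higher and 3 lower, with the latent TGF-beta binding protein Ltbp2 at 1.20 ± 0.12.

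Surface and matrix genes were mixed. Adhesion molecules rose in 8 of 34 cases, led by Vcam1 and Icam1, which bind leukocyte integrins, with 2.29 ± 0.05 and 1.92 ± 0.10 (in the authors' deposited table the larger is Icam1, at 7.51 against 2.48 for Vcam1), and fell in 1, which was 0 without TNFa replicate 1 or untreated replicate 3 and 2 without TNFa replicate 2. Of 57 cadherins and protocadherins 6 fell and 1 rose, with a median of -0.12, and 18 fell without untreated replicate 1. At an unadjusted p under 0.05, 39 were lower, and 52 of the 57 values were negative. In TNFa+BMP4 over BMP4 cells 26 of them were called lower, and in the authors' deposited table of TNFa over untreated cells 4. Protocadherin entries may share reads, so these counts may not stand for separate genes. Cdh2, the N-cadherin, fell by 0.40. Of the 4 epithelial markers only Cdh1, itself a cadherin, is not listed at 0. Its levels ran from 5.16 to 5.37 in TNFa cells and from 5.49 to 5.60 in untreated cells. Cdh1 was called lower (-0.29 ± 0.09, limma adjusted p = 0.0325), a call lost without TNFa replicate 1, TNFa replicate 2 or untreated replicate 1. The part of epithelial cells in the cadherin values was not tested. Metalloproteinases and their inhibitors had 8 of 36 higher and 7 lower, with Mmp9 at 1.02 ± 0.14 and the inhibitor Timp1 at 0.76 ± 0.10. The inositol phosphate enzymes had 6 of 43 lower and 1 higher (16.3% called, against 15.5% of all tested genes), with the phospholipase Plcd3 at -0.52 ± 0.08. Without untreated replicate 1, 3 were lower.

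Of 52 cyclins, kinases and inhibitors 6 rose and 4 fell (2 without untreated replicate 3), close to the background shares. Ccnd1, which drives entry into the cell cycle, had 14.08, 13.57 and 13.58 in TNFa cells and 13.27, 12.84 and 12.86 in untreated cells, and the inhibitor Cdkn1b had 10.07, 9.92 and 9.91 in TNFa cells and 10.47, 10.23 and 10.14 in untreated cells. Ccnd1 rose by 0.76 ± 0.06, its partner kinase Cdk6 by 0.50 ± 0.05, and Cdkn1b fell by 0.31 ± 0.06. Further called cell cycle genes, named after their values were seen, were split. The inhibitor Cdkn1a rose by 0.18 ± 0.05 and Cdc25b fell by 0.23 ± 0.06, whereas the inhibitor Cdkn2c fell by 0.31 ± 0.06. In the growth arrest and DNA damage list 10 of 28 rose and 2 fell, with Plk2 at 1.21 ± 0.11 and the stress sensor Sesn3 at -0.61 ± 0.08; 6 rose without untreated replicate 1. Caspases, gasdermins and Mlkl rose in 7 of 18 cases, with the inflammatory caspase Casp4 at 1.61 ± 0.09, which had 7.11, 6.68 and 7.05 in TNFa cells and 5.46, 5.27 and 5.27 in untreated cells; 1 fell, a call lost without TNFa replicate 2 or 3 or untreated replicate 1 or 2.

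The same TNFa contrast was read in the libraries that also received BMP4, none of which enters the comparison of TNFa with untreated cells except through the shared spread and batch estimate. There, TNFa+BMP4 cells against BMP4 cells, 1033 genes were higher and 872 lower (8.78% and 7.41%). Of the 1078 genes raised by TNFa alone, 1059 (98.2%) had the same direction, against 72.9% of all tested genes, and 774 (71.8%) were called higher again, and of the 744 lowered genes 726 (97.6%) and 478 (64.2%). Those shared genes make up 74.9% of the 1033 and 54.8% of the 872. The medians of the 2 sets were 0.30 and -0.26 in this second reading, against 0.35 and -0.29. A difference of the TNFa effect between the 2 settings was called for 2 genes, 0.017% of those tested.

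**Figure D5:**
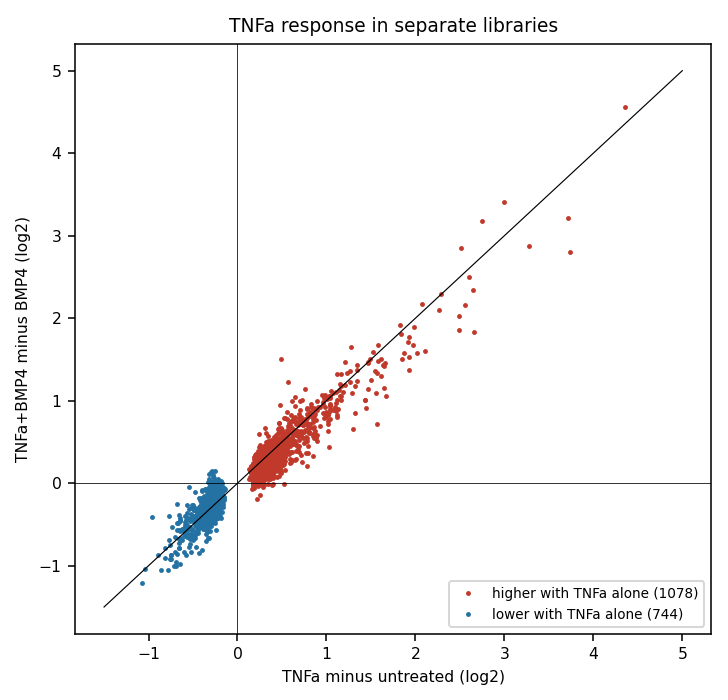
Log2 fold change in TNFa+BMP4 over BMP4 cells (vertical axis) against that in TNFa over untreated cells (horizontal axis), for the 1078 genes raised (red) and the 744 lowered (blue) by TNFa alone; the diagonal marks equal values. Points were chosen by the horizontal value, 1059 red points lie above 0 and 726 blue points below it.

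Response size differed between batches for some genes. Over the raised genes the median difference was 0.43 in batch 1, with 1 library per group, and 0.33 in batch 2, and over the lowered genes -0.35 and -0.27. Besides Ccl5, the antiviral gene Ifit1 had 2.43 in batch 1 and 1.14 in batch 2, Il1rl1, the receptor for IL-33, had 1.92 and 0.81, and Mmp9 had 1.70 and 0.68. Among the falls Cyp26b1 had -1.45 and -0.57. These genes were chosen after their values were seen, batch 1 cannot be tested by itself, and the part of the batch in these sizes was not tested.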

How the data were processed

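PolyA RNA-seq of 12 MC3T3-E1 libraries in 4 groups of 3 was deposited as 1 table. Per the submitters' processing notes, Trim Galore, HISAT2, HOMER and mm10 were used; no versions are given. The log2 values that were used are normalized tag counts on a log2 scale as deposited, per the file headers; the exact transformation is not given in the sources used here. The deposited p-values and fold changes are the authors' own comparisons, and 12 of their columns were not used.

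The 4 groups were fitted together with batch as a term in R 4.3.3 with limma 3.58.1 (trended variance, 7 residual degrees of freedom). Genes needed a mean log2 value of at least 4, and calls an adjusted p under 0.05. The scripts were tested on simulated data. The tag totals, given with the results, limit precision for low genes; a fold is a difference of deposited log2 values.

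The members and the 107 gene lists were chosen with earlier results of these data known. Genes were named by rule: the 24 largest rises and falls with the same direction in both batches, up to 4 called members of each list, 12 raised and 12 lowered transcription factors, and Tnf, Tnfrsf1a, Tnfrsf1b, Rela, Gapdh, Actb and cell type markers. Alternatives are given in the closing section. Some genes that the rule names are not reported here, in the text or in the plot of factors.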

Additional observations from a re-analysis of the deposited data

Results flagged for a closer look

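The TNFa effect differed between cells with and without BMP4 for 2 genes by the interaction term (limma, adjusted over 11765 genes). Nfkbie rose by 3.22 with BMP4 and by 3.71 without it, a difference of -0.49 ± 0.07 (SE, adjusted p = 0.0200). Pdgfb, a growth factor ligand, rose by 1.51 with BMP4 and by 0.49 without it, a difference of 1.02 ± 0.17 (adjusted p = 0.0382). The groups of 3 libraries are too small for a test of single libraries that stand apart.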

How the results depend on the processing

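The 1822 calls (1078 higher, 744 lower) numbered 2299 (1304 and 995) from the 6 libraries alone, 1734 (1045 and 689) in batch 2 alone and 1487 (932 and 555) without the filter on low values. Without the batch term they numbered 383 (318 and 65), and 210 of 369 named calls were lost; the cause was not tested. A minimum change of 0.5 left 422 (342 and 80) by its construction. Quantile normalization gave 963 higher and 951 lower, 50.3% higher against 59.2%. With the replicate block the calls numbered 1738 (1049 and 689). The labels give same-numbered samples no link beyond the number and the batch. TNFa and untreated deviations in batch 2 correlated at 0.14, which cannot settle whether such samples were paired. Leaving out 1 library gave 1297 to 1662 calls, 816 to 1034 higher and 481 to 640 lower, with 489, 489 and 481 lower without TNFa replicate 1, TNFa replicate 2 and untreated replicate 1, and 69 of 369 named calls were lost in at least 1 such fit. In these settings 0 calls turned to the opposite direction.

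Small values of uncalled genes changed sign. Gapdh was -0.000877 in batch 2 alone, -0.0123 under quantile normalization and -0.00798 to 0.0916 when 1 library was left out. Spp1 was -0.0181 and Col2a1 0.0341 in batch 2 alone. Over the fits without 1 library, Col1a2 ran from -0.0620 to 0.0182, Sparc from -0.00716 to 0.0324, Cd14 from -0.0827 to 0.0216 and Col2a1 from -0.184 to 0.188.

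The kB consensus was added after seeing the data. With only the bases before the start site, a shorter window by construction, the kB-like pattern matched 67.8% of raised, 66.0% of lowered and 62.7% of uncalled promoters, the GC box 65.7% of raised and 61.8% of uncalled, the ETS site 3.65% and 7.17%, and the E-box 7.30% and 8.79%. The ISRE-like motif matched 5.89% of raised and 2.24% of uncalled promoters, and the kB consensus 11.0% and 3.64%. For the same 2 sets, AP-1 matched 6.36% and 3.62%, CRE 2.59% and 3.02%, and TEAD 9.78% and 9.94%.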
